A study of Mus musculus with 26 samples.

Results

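The series holds 2 groups of unperturbed mouse embryonic stem cells (ESCs) that serve as controls for different inductions, and the data below describe how these groups differ. One group was treated with dimethyl sulfoxide (DMSO), the solvent in which small molecules are commonly dissolved, and the other was left untreated (ESC). The comparison uses 4 libraries, 2 of each group, out of 26 in the series. The libraries were taken by their labels, but the comparison was chosen with earlier results of these data known. All 4 come from R1, a mouse ESC line, with the genotype given as wild type. The cells were grown on gelatin with leukemia inhibitory factor (LIF), and poly(A) RNA was sequenced. The concentration of DMSO and the length of the treatment are not given in the sources used here. The labels do not say whether the groups were cultured, extracted or sequenced together, so DMSO and batch cannot be told apart. Nothing says that replicates came from separate cultures, and p-values then measure only the spread between these libraries.

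The other 22 libraries, 2 in each of 11 groups, entered the model that estimates the spread between replicates and are used below only to place levels side by side. They are R1 cells treated with 0.53 µM retinoic acid for 48 h (RA), with 4 nM of the splicing inhibitor pladienolide B for 4 days (PlaB), or, for 24 h, with doxycycline at 4 µg/mL, which turned on Dux, its R70A mutant or Zscan4 (Dux OE, Dux R70A OE, Zscan4 OE). They also include cells with Dux knockdown (Dux KD) under RA, PlaB or Zscan4 OE, and cells with a super-enhancer knockout (SE KO) under RA, PlaB or Dux OE, at the same doses and times where the labels give them. The genotype label of 1 of the 2 SE KO RA libraries reads wild type while its title reads SE KO. Both Dux KD Zscan4 OE libraries are labelled with no treatment.

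Mouse ESCs in LIF hold the transcription factors Oct4 (gene Pou5f1), Sox2 and Nanog at high levels and can move between a naive substate, close to the inner cell mass, and a formative or primed substate that has begun to respond to FGF and Nodal signals. Such cultures obtain much of their energy from glycolysis. When oxygen is short, prolyl hydroxylases no longer mark the HIF alpha subunits for destruction, and HIF then binds hypoxia response elements near genes for glucose uptake, angiogenesis and mitochondrial turnover. In the integrated stress response, kinases phosphorylate the initiation factor eIF2 alpha, most translation slows and ATF4 accumulates, which acts at C/EBP-ATF response elements. A small fraction of cells in an ordinary ESC culture passes through a 2-cell-like (2C) state marked by Zscan4, the Usp17l family and other Dux-dependent genes.

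The promoters shown here belong to genes of 3 lists described below, chosen because a DNA motif is known for the pathway, and each holds that motif. They were read from RefSeq promoter sequences on GRCm38.p6, within the 250 bases before the annotated start site. The first 3 are from hypoxia genes, with the core ACGTG on either strand in capitals. Bnip3 (chr7:138909535-138909654, minus strand) carries the core on both strands as an overlapping palindrome, and Car9 (chr4:43506968-43507025) and P4ha1 (chr10:59323240-59323295), both on the plus strand, carry it once, close to the start site.
Bnip3: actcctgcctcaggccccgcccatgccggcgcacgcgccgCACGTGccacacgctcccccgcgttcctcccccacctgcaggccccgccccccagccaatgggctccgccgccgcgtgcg
Car9: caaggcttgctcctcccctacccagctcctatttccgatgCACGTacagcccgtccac
P4ha1: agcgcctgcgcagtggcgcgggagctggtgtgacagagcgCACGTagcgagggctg
Chac1 (chr2:119351009-119351128, plus strand), a gene of the integrated stress response, carries the letters TGATGNAA, written here from the opposite strand, in capitals.
Chac1: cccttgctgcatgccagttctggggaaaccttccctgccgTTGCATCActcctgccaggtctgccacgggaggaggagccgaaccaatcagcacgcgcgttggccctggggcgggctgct
Ccn1 (chr3:145650009-145650128, minus strand) and Ajuba (chr14:54577768-54577887, minus strand), listed as targets of the coactivator YAP, carry the TEAD motif GGAATG on the opposite strand, Ajuba at 2 places.
Ccn1: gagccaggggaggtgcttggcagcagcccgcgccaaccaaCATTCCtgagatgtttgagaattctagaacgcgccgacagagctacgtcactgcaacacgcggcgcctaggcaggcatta
Ajuba: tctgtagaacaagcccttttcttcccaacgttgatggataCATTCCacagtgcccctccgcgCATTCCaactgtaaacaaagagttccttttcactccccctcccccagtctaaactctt
The motifs were searched on both strands, and ACGTG includes every match of the E-box CACGTG. The core ACGTG was present in 20.8% of the 13364 promoters of tested genes, in 21.1% of those of genes called higher in DMSO, in 19% of those called lower, and in 8 of 15 promoters of the hypoxia list (53.3%). TGATGNAA was present in 2.03% of all promoters, 1.9% and 3.05% of those called higher and lower, and 7 of 26 of the integrated stress response list (26.9%). GGAATG was present in 11.1% of all promoters, 10.1% and 13.3% of those called higher and lower, and 11 of 20 of the actin and YAP list (55.0%). The share of a list covers its members whether called or not, so it does not depend on the difference between DMSO and ESC. A match of letters is a description and not a binding site. Ndrg1, Bhlhe40 and Ero1l had no entry.

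The reads counted on genes numbered between 16880605 and 19453495 in the 4 libraries, and 3 counts, the floor used below, correspond to between 0.165 and 0.2 CPM, the counts of a gene scaled to the size of its library. The depth, the share of counts on mitochondrial genes (3.09 to 3.16%) and on cytosolic ribosomal protein genes (5.7 to 5.9%) were close in all 4 libraries. The 2 DMSO libraries had a read on 22044 and 22068 genes and the 2 ESC libraries on 23290 and 23457. The Pearson r of log2 CPM across genes was 0.991 between the replicates of each group and 0.967 between any DMSO and any ESC library. The label of an ESC held in both groups. The 10 ESC markers listed for this check lay between 226 and 1949 CPM in every library, from Sall4 in DMSO to Tdgf1 in DMSO. Of 17 tested genes of fibroblast and feeder cells, 1 was called, Col1a2, with at most 9 counts in any of the 4 libraries and no call without DMSO replicate 2 (-1.93) or ESC replicate 2 (-2.35). At any fold, 3 of the 17 were higher at an adjusted p under 0.05 (beside 21.2% of all genes) and 2 lower (beside 22.4%). R1 is known as a male line, but the 8 Y-linked genes listed had no read in any of the 4 libraries and at most 6 in any of the 26. Xist, the X-inactivation RNA, looked up after its values were seen, lay at 0.908 and 0.823 CPM in DMSO and at 7.04 and 6.8 CPM in ESC.

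A gene is called here when edgeR's quasi-likelihood test gave a Benjamini-Hochberg adjusted p under 0.05 and the log2 fold change, DMSO minus ESC, was at least 1 in size. Of 20953 genes tested, 1743 were called higher in DMSO (8.32%) and 1658 lower (7.91%), so that 16.2% were called in all. Without a fold threshold, 4446 genes were higher (21.2%) and 4695 lower (22.4%), together 43.6%. An unadjusted p under 0.05 was found for 49.8% of genes, and in 72.3% the DMSO and ESC libraries did not overlap. The median log2 fold change of all genes was -0.04. Protein-coding genes were called higher more often than lower, 1458 against 1130 of 15529, whereas lincRNAs were called lower more often, 122 against 47 of 778. With each of the 4 libraries left out in turn, between 1499 and 1593 genes were called higher and between 1383 and 1391 lower.

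Counting genes whose log2 CPM averaged 3 or more across the series and whose groups did not overlap, the 12 that rose most were Zc3h6, Gulp1, Arhgap45, Lbh, Mipol1, Abca1, mt-Co3, Stk39, Galnt7, Cidea, Ndufa4l2 and H2-Q7. Zc3h6, which encodes a zinc finger protein, lay at 22.3 and 22.3 CPM in DMSO and at 1.18 and 1.87 CPM in ESC, a log2 fold change of 3.87 ± 0.22 (SE, n = 2 per group, adjusted p = 3.86e-13 by edgeR). Abca1, the cholesterol exporter, lay at 66.0 and 62.8 CPM against 7.97 and 7.27 CPM (log2 fold change 3.08 ± 0.11). Arhgap45, a GTPase-activating protein, lay at 44.0 and 44.7 CPM against 3.92 and 3.93 CPM (3.50 ± 0.22). The DMSO libraries lay far above the ESC libraries in each of these genes, and replicates were close to each other. Ndufa4l2, a subunit-like protein that HIF is known to induce, rose from 6.85 and 9.13 CPM in ESC to 53.6 and 56.6 CPM in DMSO.

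The 12 genes with the largest fall were Ly6a, BB287469, Gm48754, Gm12800, Kdm4dl, AF067061, Lncenc1, Gm21818, Dglucy, Ttn, Ddr2 and Gm32885. Ly6a, the surface protein Sca-1, had 0 and 3 counts in DMSO and 148 and 139 in ESC and was therefore at least 55.2-fold lower. Lncenc1, a long noncoding RNA of naive ESCs, lay at 9.36 and 6.36 CPM in DMSO and at 230 and 229 CPM in ESC, a log2 fold change of -4.87 ± 0.13 (adjusted p = 4.98e-20 by edgeR). Dglucy, an enzyme of D-glutamate metabolism, lay at 0.737 and 0.932 CPM against 22.98 and 20.1 CPM (-4.68 ± 0.19), and Ddr2, a collagen receptor, at 0.17 and 0.494 against 7.85 and 8.07 CPM (-4.55 ± 0.27). BB287469, Gm48754, Gm12800, Kdm4dl, AF067061 and Gm21818 reached the average of the rule through other groups: they had no read in either DMSO library and at most 11 in an ESC library. Gm21818 was not called without DMSO replicate 1 (-4.73), DMSO replicate 2 (-4.71) or ESC replicate 2 (-3.45).

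**Figure D1:**
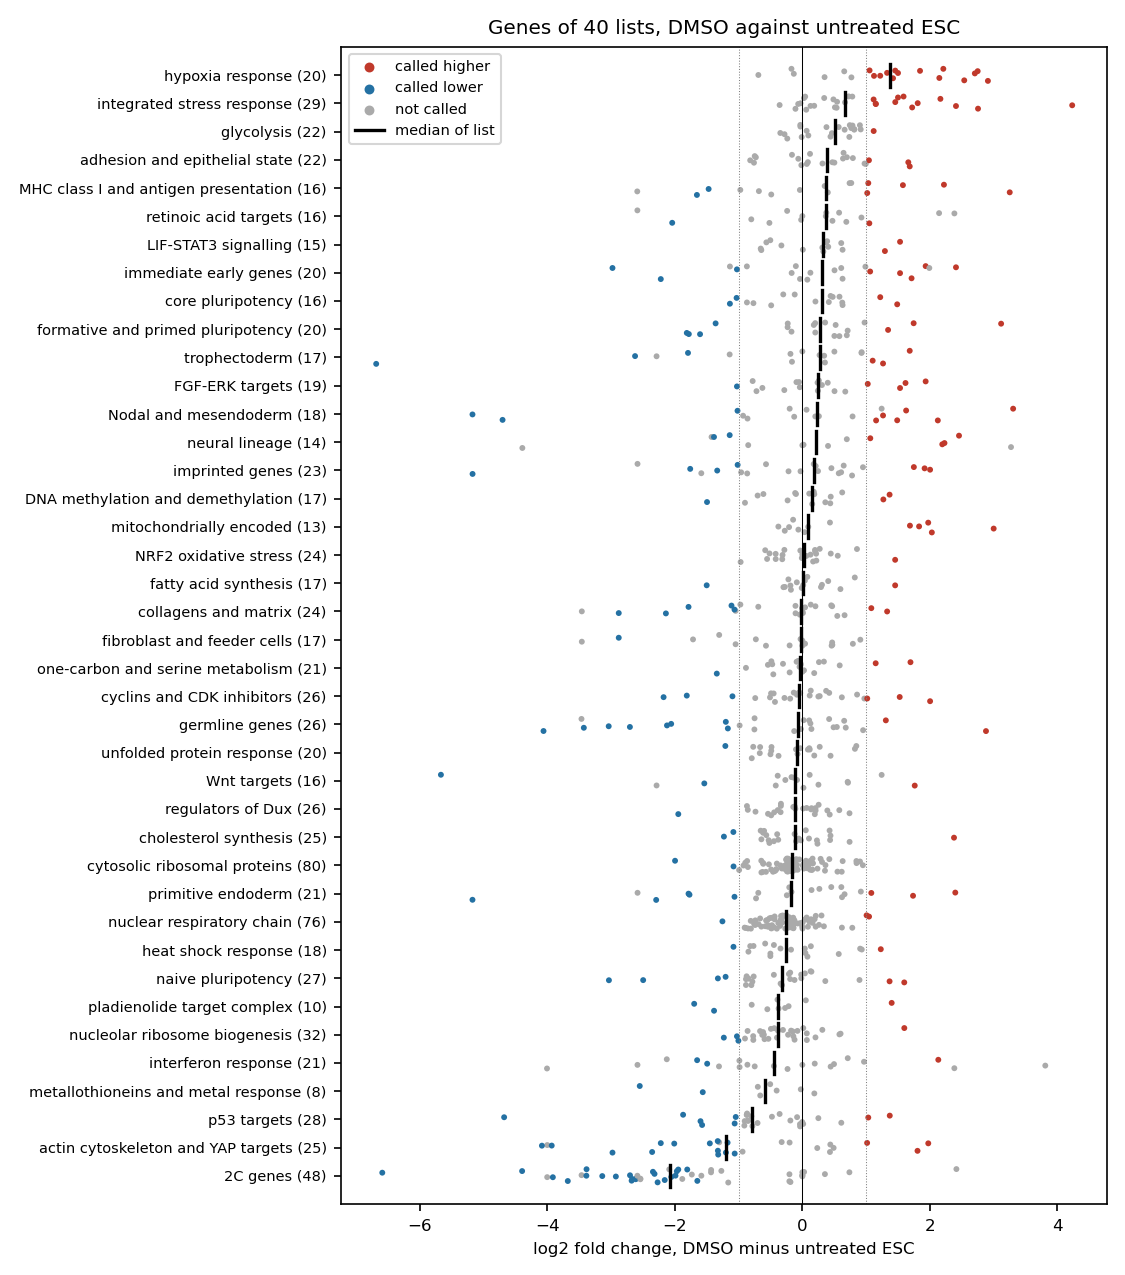
Log2 fold change (DMSO minus untreated ESC, x axis) of every tested gene in 40 gene lists, 1 point per gene, with the number of genes in brackets. Red and blue points are genes called higher and lower, grey points were not called, black bars are list medians, and dotted lines mark the fold threshold. The hypoxia list has the highest median (1.37) and the 2C list the lowest (-2.07).

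Genes of the hypoxia response were higher in DMSO. Of 20 genes tested, 14 were called higher (beside 8.32% of all genes) and none lower, and the list median was 1.37. Bnip3, which directs damaged mitochondria to autophagy, lay at 218.5 and 218.0 CPM in DMSO and at 32.1 and 34.9 CPM in ESC, a log2 fold change of 2.70 ± 0.13 (adjusted p = 7.47e-15 by edgeR). Bhlhe40, a transcriptional repressor, lay at 150.4 and 147 CPM against 20.4 and 23.9 CPM (2.75 ± 0.25), and Ndrg1, a stress-induced differentiation protein, at 89.97 and 97.3 against 13.6 and 18.7 CPM (2.54 ± 0.19). In each of these genes the lower DMSO library was more than 4 times the higher ESC library.

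Vegfa, the angiogenic growth factor, lay at 123 and 119 CPM in DMSO and at 25.2 and 27.1 CPM in ESC (2.21 ± 0.14). Both oxygen-sensing prolyl hydroxylases of the list rose: Egln3 from 30.3 and 29.7 to 132 and 133 CPM (2.15 ± 0.20), and Egln1 from 35.9 and 34.8 to 88.4 and 89.3 CPM (1.33 ± 0.17). Car9, the carbonic anhydrase that exports acid, rose as well, but from low levels, 0.311 and 0.2 CPM in ESC to 1.48 and 2.47 CPM in DMSO (2.91 ± 0.60). The other called members were Ankrd37, Ddit4, Stc2, Adm, Ero1l, P4ha1 and P4ha2, with log2 fold changes between 1.05 and 1.84. The 6 members that were not called were Bnip3l (0.77 ± 0.07), Plod2 (0.66), Mxi1 (0.35), Higd1a (-0.13), Hilpda (-0.17) and Kdm3a, a histone demethylase, which lay at 96.6 and 103 CPM in DMSO and at 155.5 and 166.5 CPM in ESC (-0.69 ± 0.13). With any 1 library left out, between 12 and 14 members were called higher.

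Glycolytic genes mostly lay higher in DMSO, few of them by the fold threshold. Of 22 tested, 1 was called higher (4.55%, beside 8.32% of all genes) and none lower. At any fold, 14 were higher at an adjusted p under 0.05 (beside 21.2% of all genes) and 3 lower (beside 22.4%). The called gene was Slc2a1, the glucose transporter Glut1, at 1037 and 1024 CPM in DMSO and 468 and 481 CPM in ESC (1.12 ± 0.14). Slc2a3, a second glucose transporter, lay at 2850 and 2884 CPM against 1461 and 1582 CPM (0.91 ± 0.10) and fell short of the fold threshold. The final kinase Pkm had the opposite sign, at 3376 and 3453 CPM against 4266 and 4412 CPM (-0.35 ± 0.12). The list median was 0.52, beside -0.04 for all genes.

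**Figure D2:**
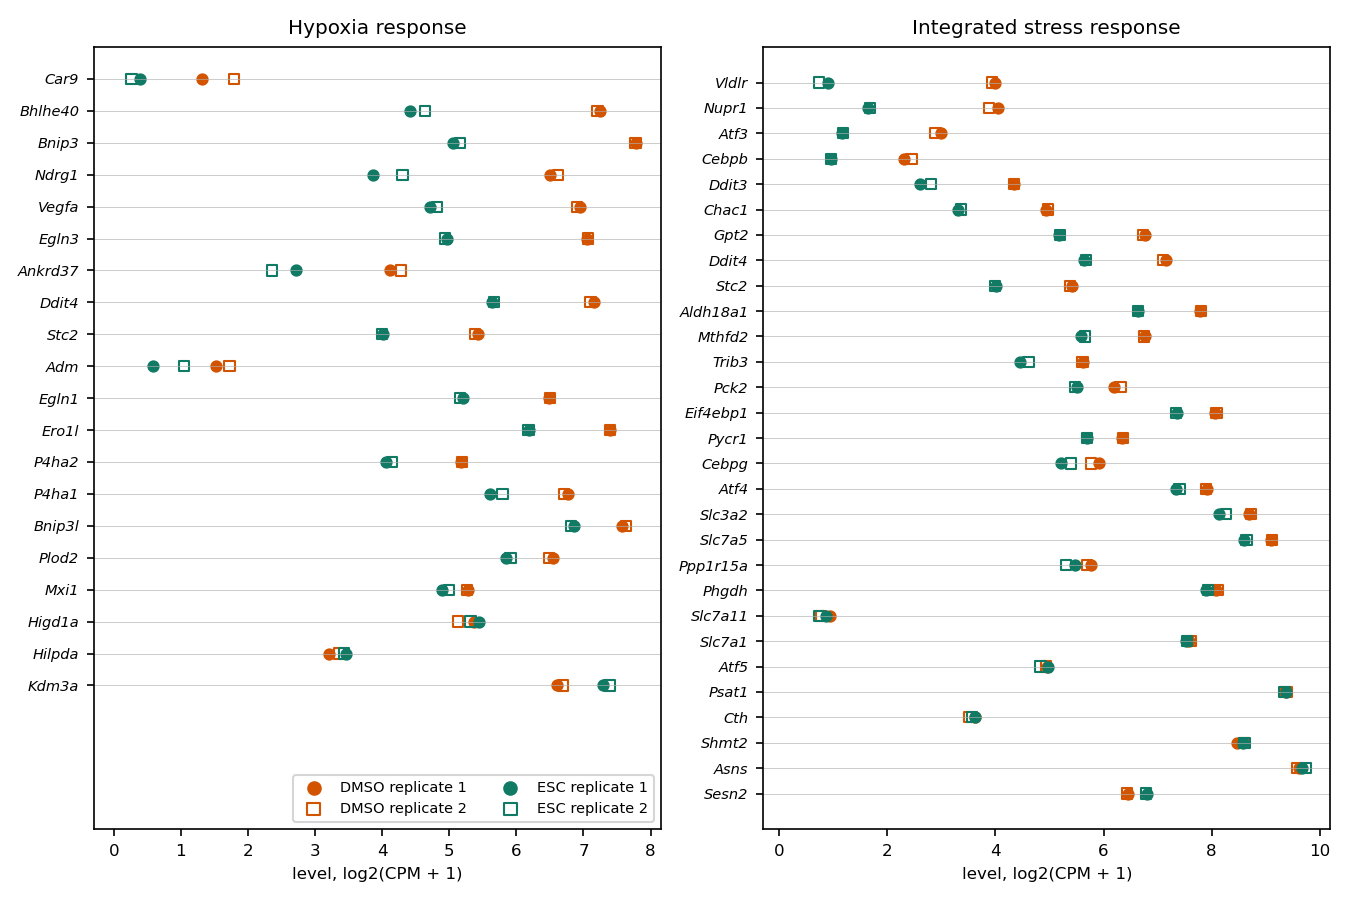
Level of each gene of the hypoxia list (left) and of the integrated stress response list (right) as log2(CPM + 1) in the 2 DMSO libraries (orange) and the 2 untreated ESC libraries (green). Circles are replicate 1 and open squares replicate 2, and genes are ordered by their fold change. The replicates of a group lie close together, and in 17 of the 20 hypoxia genes both DMSO libraries lie above both ESC libraries, while 72.3% of all genes have no overlap in either direction.

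Part of the integrated stress response was also higher in DMSO. Of 29 genes tested, 12 were called higher (41.4%, beside 8.32% of all genes) and none lower, with a median of 0.67. The largest change was that of Vldlr, a lipoprotein receptor, at 14.9 and 14.4 CPM in DMSO and 0.872 and 0.667 CPM in ESC (log2 fold change 4.23 ± 0.30, adjusted p = 2.14e-11 by edgeR). The stress transcription factors rose together: Nupr1 from 2.12 and 2.2 to 15.4 and 13.8 CPM (2.75 ± 0.23), Atf3 from 1.25 and 1.27 to 6.98 and 6.42 CPM (2.41 ± 0.26), Cebpb from 0.934 and 0.933 to 3.97 and 4.44 CPM (2.16 ± 0.33), and Ddit3, which encodes CHOP, from 5.05 and 6.0 to 19.3 and 19.3 CPM (1.81 ± 0.15). Chac1, which degrades glutathione, rose from 8.91 and 9.26 to 29.5 and 30.4 CPM (1.72 ± 0.17).

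The other called members were Gpt2, Ddit4, Stc2, Aldh18a1, Mthfd2 and Trib3, between 1.12 and 1.59, of which Ddit4 and Stc2 are in the hypoxia list too. The amino acid synthesis genes of the list that lie highest were not called: Asns, asparagine synthetase, lay at 782 and 770 CPM in DMSO and 813 and 859 CPM in ESC (-0.11 ± 0.10), and Psat1, of serine synthesis, at 669 and 669 against 663 and 651.5 CPM (0.03 ± 0.10). Atf4 itself lay at 240 and 237 CPM against 160.3 and 169 CPM (0.54 ± 0.07) and stayed under the fold threshold.

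Other stress lists held few called genes. In the unfolded protein response list, 1 of 20 genes was called, Xbp1, which encodes the transcription factor downstream of IRE1 and fell from 144 and 138 to 61.9 and 60.4 CPM (-1.21 ± 0.11). Of 18 heat shock genes, Hspa1b rose (1.23 ± 0.17) and Hspb1 fell (-1.08 ± 0.14), and Hsp90aa1, an abundant chaperone, lay at 8059 and 7995 CPM in DMSO and 4189 and 4380 CPM in ESC (0.91 ± 0.09) without being called. In the NRF2 list, 1 of 24 genes was called, Me1, the NADPH-producing malic enzyme (1.45 ± 0.11). The metal-binding proteins Mt1 and Mt2 both fell, Mt1 from 54.9 and 56.3 to 20.4 and 17.3 CPM (-1.56 ± 0.21) and Mt2 from 2.3 and 1.67 to 0.397 and 0.274 CPM (-2.55 ± 0.49).

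Targets of p53 were mostly lower. Of 28 tested, 6 were called lower (21.4%, beside 7.91% of all genes) and 2 higher (7.14%, beside 8.32%). At any fold, 18 were lower at an adjusted p under 0.05 (beside 22.4% of all genes) and 3 higher (beside 21.2%). Beside Dglucy, the genes that fell were Plk2, Phlda3, Ddit4l, Zmat3 and the cyclin Ccng1. Plk2, a stress-responsive kinase, lay at 6.92 and 9.16 CPM in DMSO and 30.1 and 28.7 CPM in ESC (-1.87 ± 0.16), and Phlda3, an inhibitor of Akt, at 23.8 and 23 against 70.2 and 71.6 CPM (-1.6 ± 0.12). Trp53 lay at 357 and 379 CPM against 664 and 667 CPM (-0.86 ± 0.09) and was not called. Pmaip1, the proapoptotic Noxa, rose from 26.7 and 23.4 to 67.6 and 61.9 CPM (1.37 ± 0.10), and the lipid transfer protein Pltp rose by 1.03 on the log2 scale. With any 1 library left out 6 members were called lower, and 4 with library size alone as the scaling.

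Of the 13 genes encoded by mitochondrial DNA, 5 were called higher (38.5%, beside 8.32% of all genes) and none lower. The 5 were mt-Co3, mt-Nd3, mt-Nd4l, mt-Atp6 and mt-Co2. The abundant mt-Co1 lay at 13677 and 13885 CPM in DMSO and 14816 and 13969 CPM in ESC (-0.06 ± 0.09) and was not called. The 5 genes that rose are those whose sequence is almost wholly repeated in a nuclear copy of mitochondrial DNA on chromosome 1: between 98.0% and 99.9% of their 50-base windows occur in the pseudogenes there, beside 28.7% for mt-Co1, 62.2% for mt-Nd4 and 0% for the other 6 (mt-Nd1, mt-Nd2, mt-Nd5, mt-Nd6, mt-Cytb and mt-Atp8). Their levels were low for subunits of these complexes, with mt-Co3 at 114 and 141 CPM in DMSO and 14.5 and 17.5 CPM in ESC. How reads that map to several places were counted is not given, so these 5 values are uncertain. In all 5, the summed counts of gene and copy were higher in both DMSO than in both ESC libraries. For mt-Co3 and its copy they lay at 229 and 288 CPM against 65.4 and 63.05 CPM. The sums differed by less than 2 times for mt-Nd3, at 89.9 and 119 CPM against 75.1 and 60.6 CPM, and for mt-Nd4l, at 44.2 and 60.5 against 31.1 and 27.5 CPM. For the partly repeated mt-Nd4 and mt-Co1 the sums were lower in DMSO. They lay at 1705 and 1716 against 2174 and 2116 CPM for mt-Nd4, and at 13730 and 13940 against 14820 and 13980 CPM for mt-Co1. Reads counted on neither gene nor copy, if any, are missing from these sums, so the part of mapping was not tested.

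Nuclear genes of the respiratory chain mostly lay slightly lower in DMSO, 1 of them by the fold threshold. Of 76 tested, Cycs, cytochrome c (1.01 ± 0.09), and Cox6c (1.05 ± 0.13) were called higher and Ndufb2 (-1.25 ± 0.23) lower. At any fold, 38 had an adjusted p under 0.05 in the lower direction (beside 22.4% of all genes) and 5 in the higher (beside 21.2%). The list median was -0.26, beside -0.04 for all genes. Cycs was not called without DMSO replicate 2 (0.99) or ESC replicate 1 (0.98), nor Cox6c without DMSO replicate 1 (0.95) or ESC replicate 1 (0.91). With fold changes centred on chromosome medians, a setting chosen after seeing the data, no gene of the list was called higher. In lipid synthesis, Fasn, fatty acid synthase, fell from 947 and 1006 to 344.5 and 346 CPM (-1.50 ± 0.09), and Fdft1, squalene synthase, fell as well (-1.23 ± 0.10). In one-carbon metabolism, the mitochondrial folate enzymes Aldh1l2 (1.70 ± 0.18) and Mthfd2 (1.15 ± 0.10) rose. Mat2a, which makes S-adenosylmethionine, fell from 515 and 521 to 207 and 202 CPM (-1.34 ± 0.08), and Tdh, the threonine dehydrogenase of mouse ESCs, lay at 443 and 468 CPM against 847 and 836 CPM (-0.88 ± 0.09).

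The core pluripotency factors were not lower in DMSO. Pou5f1 lay at 873 and 931 CPM in DMSO and 659 and 638 CPM in ESC (0.48 ± 0.10), Sox2 at 594 and 590.5 against 391 and 377 CPM (0.63 ± 0.11), and Nanog at 888 and 935 against 664 and 677 CPM (0.44 ± 0.07). All 3 had an adjusted p under 0.05 by edgeR, at most 0.000277, with DMSO the higher group and no overlap, but none reached the fold threshold. Of the 16 genes of the list, Tdgf1, the Nodal coreceptor Cripto, rose from 691 and 685 to 1908 and 1949 CPM (1.49 ± 0.14), and Fgf4 rose from 140 and 131 to 321 and 311 CPM (1.22 ± 0.10). Sall4 fell from 490 and 515 to 226 and 231 CPM (-1.14 ± 0.07), and Gdf3, a ligand of the TGF beta family, from 108 and 110 to 53.6 and 53.1 CPM (-1.03 ± 0.11).

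Markers of the naive substate moved in both directions. Of 27 tested, 4 were called lower (14.8%, beside 7.91% of all genes) and 2 higher (7.41%, beside 8.32%). At any fold, 14 were lower at an adjusted p under 0.05 (beside 22.4% of all genes) and 4 higher (beside 21.2%). Tfcp2l1, a transcription factor downstream of LIF, lay at 641 and 642 CPM in DMSO and 1594 and 1619 CPM in ESC (-1.32 ± 0.07). Sox21 (-2.50 ± 0.24), Nlrp4f (-3.03 ± 0.53) and the lysosomal enzyme Manba (-1.20 ± 0.07) were the others that fell. Nlrp4f lay at low levels, 0.1135 and 0.219 CPM in DMSO and 1.56 and 1.27 CPM in ESC. Tcl1, a cofactor of Akt, rose from 45.5 and 45.4 to 136 and 140 CPM (1.6 ± 0.14), and Dppa3 rose at low levels, from 0.685 and 0.4 to 1.13 and 1.7 CPM (1.37 ± 0.45). Without DMSO replicate 2 or ESC replicate 2 Dppa3 was not called, at 1.05 in each case. Esrrb, at 1122 and 1198 CPM in DMSO and 1165 and 1182 CPM in ESC (-0.02 ± 0.09), and Zfp42, at 952 and 941 against 850 and 866 CPM (0.14 ± 0.07), did not pass the test. Klf4 lay at 512 and 528 CPM against 288 and 271 CPM (0.90 ± 0.15), below the fold threshold.

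Formative and primed markers also moved in both directions, with 3 of 20 called higher (beside 8.32% of all genes) and 4 lower (beside 7.91%). Regardless of fold, 8 passed the test as higher (beside 21.2% of all genes) and 4 as lower (beside 22.4%). Fgf15, a primed-state ligand of the FGF family, rose from 4.73 and 3.87 to 38.3 and 36.5 CPM (3.12 ± 0.22, adjusted p = 1.07e-11 by edgeR), and the zinc finger factors Zic5 (1.74 ± 0.23) and Zic2 (1.34 ± 0.31) rose with it. Otx2, which drives exit from the naive substate, fell from 27.9 and 28.7 to 7.09 and 8.99 CPM (-1.81 ± 0.16), as did Foxd3 (-1.78 ± 0.15), Grhl2 (-1.6 ± 0.22) and Sall2 (-1.36 ± 0.19). The de novo DNA methyltransferases Dnmt3a, at 182 and 186 CPM against 163 and 162 CPM (0.18 ± 0.11), and Dnmt3b, at 111 and 115 against 132 and 134 CPM (-0.23 ± 0.10), did not pass the test. Their cofactor Dnmt3l fell from 161 and 162 to 58.5 and 56.3 CPM (-1.49 ± 0.14). No list of either substate therefore moved as a block, but the list medians had opposite signs. They were -0.32 for naive and 0.28 for formative and primed genes, beside -0.04 for all genes.

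Signalling targets gave a similar picture. In the LIF-STAT3 list, Pim1, a kinase, rose from 61.0 and 57.3 to 143 and 148 CPM (1.29 ± 0.09) and Ier3 by 1.53 on the log2 scale, while Socs3 (0.39 ± 0.10) and Stat3 (-0.64 ± 0.08) were not called. Of 19 FGF-ERK targets, 4 were called higher (21.1%, beside 8.32% of all genes). Among them were the immediate early factor Egr1, from 8.72 and 8.73 to 34.4 and 32.3 CPM (1.93 ± 0.19), and the phosphatase Dusp4 (1.62 ± 0.21). Myc, the only member called lower, lay at 35.8 and 38.5 CPM against 77.7 and 73.5 CPM (-1.03 ± 0.12) and was not called without DMSO replicate 1 or ESC replicate 1, at -0.97 in each case. Mycn, in contrast, rose from 80.9 and 80.5 to 247 and 242 CPM (1.6 ± 0.09). In the Wnt list, Nkd1 rose (1.76 ± 0.21) and Notum fell (-1.54 ± 0.14), both feedback inhibitors, and Axin2 (-0.08) was not called.

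Nodal signalling genes held the largest share of called genes among the signalling lists. Of 18, 6 were called higher (33.3%, beside 8.32% of all genes) and 3 lower (16.7%, beside 7.91%). The Nodal inhibitors Lefty2, from 24.0 and 28.1 to 118 and 109 CPM (2.12 ± 0.14), and Lefty1, from 7.23 and 9.26 to 17.7 and 19 CPM (1.16 ± 0.16), rose along with Tdgf1, Id2 (1.63 ± 0.22) and Eomes (1.26 ± 0.21). Nodal itself fell from 77.9 and 81.5 to 38.7 and 40.1 CPM (-1.02 ± 0.11). Foxa2 and Lhx1, the other members called lower, had no read in DMSO and at most 4 in an ESC library. Between 0 and 2 members were called lower when 1 library was left out, with 0 without DMSO replicate 1 and without ESC replicate 2.

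The background of 2C genes was lower in DMSO. Of 48 genes tested, 23 were called lower (47.9%, beside 7.91% of all genes) and none higher, with a median of -2.07. With the threshold at an adjusted p under 0.01, 19 were called lower. The summed level of the list was 21.2 and 19.08 CPM in DMSO and 93.7 and 90.5 CPM in ESC. In bulk RNA, fewer cells in the 2C-like state and less 2C RNA per such cell cannot be told apart. Zscan4d lay at 2.27 and 1.37 CPM in DMSO and 11.96 and 10.1 CPM in ESC (-2.60 ± 0.22, adjusted p = 3.6e-10 by edgeR), and Zscan4c at 1.76 and 1.32 against 5.73 and 6.13 CPM (-1.95 ± 0.20). All 6 Zscan4 genes tested, Zscan4a to Zscan4f, were called lower, between -1.65 and -2.60, and these near-identical paralogs may share reads.

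The Usp17l deubiquitinases fell with them. Usp17lb lay at 0.34 and 0.274 CPM in DMSO and 2.87 and 5.2 CPM in ESC (-3.68 ± 0.36), and Usp17lc, with at most 3 counts in a DMSO library, was at least 10.5-fold lower. BB287469, with no read in DMSO and 10 and 9 in ESC, was at least 3.65-fold lower, Gm4027 at least 5.61-fold and Gm13119 at least 3.87-fold. Arg2, an arginase, was called lower too (-2.32). The upstream factor itself was at the limit of detection in both groups: Duxf3, the Dux gene of the table, lay at 0.0567 and 0 CPM in DMSO and 0.187 and 0 CPM in ESC, and Zfp352 had no read in 3 of the 4 libraries. Tdpoz3 was called lower from at most 0.498 CPM in ESC, but not without DMSO replicate 2 (-1.93) or ESC replicate 1 (-2.17), and Tdpoz4 was not called.

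Many of these genes passed the low-count filter only through groups in which they are high: 23 of the 48 were at or under 3 counts in both DMSO libraries, 14 in both ESC libraries and 13 in all 4. Without the 13, and with levels under the floor raised to it, the median over 35 genes was -1.88. In a fit of the 4 libraries alone, 19 of the 2C genes passed the filter, of which 18 were called lower and none higher. A gene can pass that filter by its level in ESC alone, so the count of 18 is not free of this selection. Among the 26 listed regulators of Dux, Zscan4c was the only called gene. Trim28, the corepressor Kap1, lay at 1499 and 1513 CPM in DMSO and 2751 and 2752 CPM in ESC (-0.87 ± 0.10), while the activators Dppa2 (-0.49) and Dppa4 (-0.12) were not called.

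**Figure D3:**
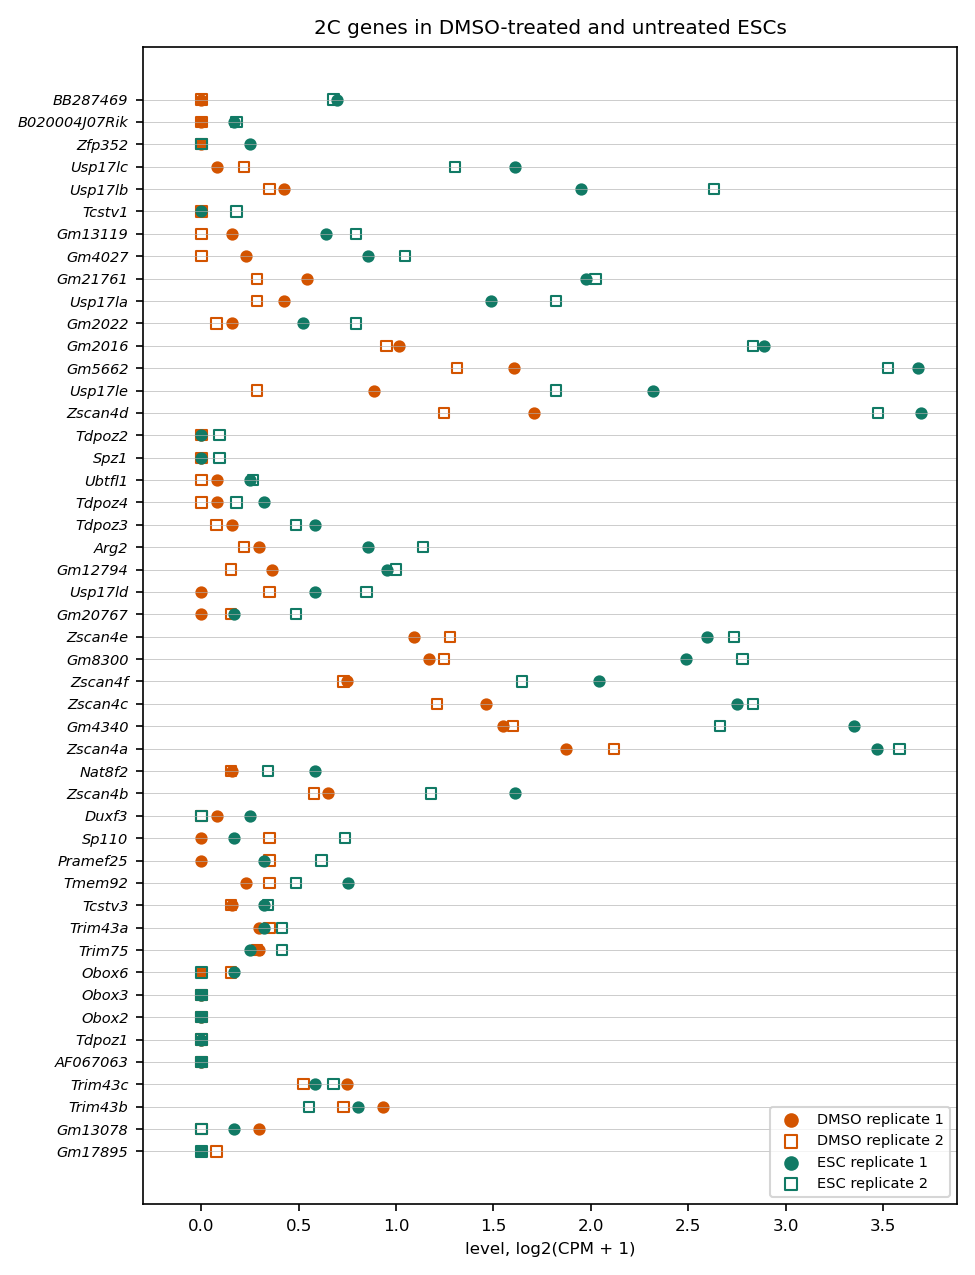
Level of the 48 tested 2C genes as log2(CPM + 1) in the 2 DMSO libraries (orange) and the 2 untreated ESC libraries (green), ordered by fold change, with circles for replicate 1 and open squares for replicate 2. In 30 of the 48 genes both DMSO libraries lie below both ESC libraries, and in none above, beside 72.3% of all genes without overlap.

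Genes of the actin cytoskeleton and YAP targets were lower in DMSO. Of 25 tested, 13 were called lower (52.0%, beside 7.91% of all genes) and 3 higher (beside 8.32%), with a median of -1.20. The YAP targets Ccn2, from 2.93 and 2.87 to 0.227 and 0.494 CPM (-2.98 ± 0.40), Ccn1, from 9.28 and 9.998 to 2.04 and 2.08 CPM (-2.22 ± 0.21), and Amotl2, from 40.1 and 40.7 to 9.08 and 10.97 CPM (-2.01 ± 0.10), all fell, as did the kinase Lats2 (-2.36 ± 0.38). The cytoplasmic actins fell as well, Actb from 2250 and 2306 to 1101 and 1082 CPM (-1.06 ± 0.09) and Actg1 from 2432 and 2442 to 1079 and 1083 CPM (-1.17 ± 0.10). The largest fall was that of Anxa1, a calcium-dependent membrane binder, from 6.29 and 8.13 to 0.454 and 0.384 CPM (-4.08 ± 0.25). Its relative Anxa2 rose from 17.8 and 16.7 to 68.5 and 67.3 CPM (1.97 ± 0.26), with Cnn1 (1.81) and Tpm2 (1.02). With any 1 library left out 13 members were called lower.

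Adhesion and matrix genes changed less uniformly. The tight junction genes Cldn3 (1.66 ± 0.35) and Cldn6 (1.04 ± 0.21) and the keratin Krt19 (1.68 ± 0.37) rose, while Cdh1, E-cadherin, lay at 503 and 506 CPM against 401 and 410 CPM (0.32 ± 0.08) and was not called. Of 24 matrix genes, 5 were called lower (20.8%, beside 7.91% of all genes) and 2 higher (8.33%, beside 8.32%). Sparc, a matrix glycoprotein, fell from 291 and 292 to 81.5 and 87.7 CPM (-1.78 ± 0.11), and Col18a1 fell from 478 and 483 to 214 and 231 CPM (-1.11 ± 0.09). Fn1, fibronectin, lay at 1240 and 1300 CPM against 2068 and 2144 CPM (-0.73 ± 0.08).

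No lineage list moved as a whole. Of 14 neural genes tested, 4 were called higher (28.6%, beside 8.32% of all genes) and 2 lower (14.3%, beside 7.91%). The adhesion molecule Ncam1 rose from 13.4 and 13.5 to 62.6 and 60.3 CPM (2.19 ± 0.13). Gap43 (2.46 ± 0.11), Map2 (2.23 ± 0.15) and Nes (1.07 ± 0.16) rose, and Tubb3 (-1.39 ± 0.13) and Stmn2 (-1.14 ± 0.09) fell. Of 21 primitive endoderm genes, 3 were called higher (14.3%, beside 8.32% of all genes) and 5 lower (23.8%, beside 7.91%). Those called lower included Sparc and Hnf4a (-2.29 ± 0.22). The summed level of the list was 1061 and 1096 CPM in DMSO and 1568 and 1588 CPM in ESC. The defining factors Gata4 (0.61), Gata6 (0.92) and Sox17 (-0.21) were not called. Of 17 trophectoderm genes, 3 were called higher and 3 lower (17.6% each, beside 8.32% and 7.91% of all genes). Tead4 was higher (1.10 ± 0.17) and Tfap2a lower (-2.62 ± 0.30), and Cdx2 (-2.29) was not called. Stra8, the only retinoic acid target of 16 called higher, lay at 18.9 and 20.1 CPM in DMSO and 9.03 and 9.8 CPM in ESC (1.05 ± 0.16).

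Germline genes were more often called lower than higher, with 8 of 26 called lower (30.8%, beside 7.91% of all genes) and 2 higher (7.69%, beside 8.32%). The list median, at -0.08, was close to that of all genes, at -0.04. Tex19.1, a repressor of retrotransposons, fell from 36.0 and 36.4 to 4.42 and 4.39 CPM (-3.04 ± 0.18), and Sohlh2, a germ cell transcription factor, from 84.6 and 87.7 to 13.4 and 13 CPM (-2.70 ± 0.10, adjusted p = 2.54e-16 by edgeR). Tuba3a and Tuba3b, near-identical tubulins that may share reads, and Fkbp6 (-3.43 ± 0.36) fell too, and Tuba3b was at least 6.14-fold lower. The synaptonemal complex protein Sycp3 rose from 1.37 and 1.4 to 9.64 and 10.8 CPM (2.88 ± 0.28). Of 17 genes of DNA methylation, Uhrf2 (1.27 ± 0.07) and Dppa3 were called higher and Dnmt3l lower, and Dnmt1 (-0.11 ± 0.07) and Tet1 (0.19 ± 0.12) did not pass the test. Among 23 imprinted genes, 3 rose, Cdkn1c (2.00 ± 0.18), Phlda2 (1.92 ± 0.13) and Sgce (1.75 ± 0.20), and Kcnq1ot1 (-1.76 ± 0.31), which lies antisense to Kcnq1 and, as the strand setting is not given, may hold its reads, Snrpn (-1.34 ± 0.11), Plagl1 (-1.01) and H19 were called lower. H19 had no read in DMSO and 4 and 3 in ESC, and it was not called without DMSO replicate 1 (-5.20), DMSO replicate 2 (-5.18) or ESC replicate 1 (-5.03).

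Of 16 genes of antigen presentation, 5 were called higher (31.2%, beside 8.32% of all genes) and 2 lower (12.5%, beside 7.91%). The class I heavy chain H2-K1 rose from 7.72 and 7.2 to 35.1 and 34.5 CPM (2.22 ± 0.16). H2-Q4 (1.58 ± 0.26), H2-D1 (1.03 ± 0.14), Tap1 (1.02) and the peptide transporter Tap2 (3.25 ± 0.75) rose as well. Tap2 averaged 0.971 CPM in DMSO and 0.0956 CPM in ESC, under the floor, so the size of its rise is uncertain. The light chain B2m, in contrast, lay at 5.28 and 5.43 CPM against 8.97 and 8.2 CPM (-0.68 ± 0.20), and Nlrc5, the class I transactivator, fell (-1.65 ± 0.37). H2-D1 was not called without ESC replicate 2 (0.996), and between 4 and 5 members were called higher with 1 library left out. The class I heavy chain genes are close paralogs and may share reads, and H2-K1, H2-Q4, H2-D1, Tap1 and Tap2 all lie on chromosome 17. In the interferon list, Ifitm3 rose from 24.0 and 26.1 to 105.5 and 114 CPM (2.13 ± 0.16), and Irf1 (-1.65 ± 0.13) and Ddx58 (-1.49 ± 0.20) fell.

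Cell cycle genes were called 3 times in each direction among 26 (11.5% each, beside 8.32% of all genes higher and 7.91% lower). The inhibitors Cdkn2a (-2.18 ± 0.28) and Cdkn2b (-1.81 ± 0.52) fell, Cdkn1c and Cdkn2c (1.53 ± 0.47) rose, and Mki67, the proliferation marker, lay at 750 and 752 CPM against 406 and 423 CPM (0.86 ± 0.09). Cdkn2b was not called without DMSO replicate 2 (-0.96) or ESC replicate 1 (-1.6), nor Cdkn2c without ESC replicate 2 (1.46). Cytosolic ribosomal protein genes stayed close, with 2 of 80 called lower (2.5%, beside 7.91% of all genes) and none higher. The 2 were Rps16 (-1.08 ± 0.17) and Rpl24 (-2.0 ± 0.38). Rpl24 lay at low levels, on average 0.445 CPM in DMSO and 1.79 CPM in ESC. Rps16 was not called without DMSO replicate 2 (-0.99). Both have processed pseudogenes with which they may share reads. Of 32 nucleolar genes of ribosome synthesis, 18 were lower at an adjusted p under 0.05 and any fold (beside 22.4% of all genes). In the higher direction there were 4 (beside 21.2%). Utp20, of the small subunit processome, fell (-1.23 ± 0.10), while Npm1 lay at 3769 and 3486 CPM against 2382 and 2408 CPM (0.60 ± 0.09). Of 10 subunits of SF3, the complex that pladienolide B binds, Sf3a2 (-1.70 ± 0.14) and Sf3b4 (-1.38 ± 0.13) fell, Sf3b6 rose (1.40 ± 0.10), and the drug's direct target Sf3b1 lay at 733 and 735 CPM against 1071 and 1076 CPM (-0.55 ± 0.08).

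Levels in the 13 groups place both control states among the induced cells. For this, log2(CPM + 1) was averaged over the genes of a list in each library and over the 2 libraries of a group. For the hypoxia list the level was 5.79 in DMSO and 4.59 in ESC. SE KO RA lay above DMSO at 6.08, RA below it at 5.60, and PlaB, at 4.00, was the lowest of the 13. For the integrated stress response, DMSO was the highest group at 6.17, with SE KO RA next at 6.06 and ESC at 5.34. For p53 targets DMSO was the lowest at 5.09, with the other 11 groups between 5.57 and 6.73 and ESC at 5.68. For the actin and YAP list DMSO was again the lowest at 3.76, with Dux R70A OE next at 3.88 and ESC at 4.36. In each of these lists the 2 libraries of a control group lay closer to each other than to the other control group.

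For the 2C list, DMSO lay at 0.40 and ESC at 1.03, with Dux R70A OE (0.16) below both, Dux KD Zscan4 OE (0.44) and Dux KD PlaB (0.51) between them, and the other 8 groups between 1.52 and 5.74. The gap between the controls was therefore small beside that to Dux OE, at 5.74, or PlaB, at 5.02. Zscan4d lay at 1.82 CPM in DMSO and 11.05 CPM in ESC on average, beside 4318 CPM in PlaB, 261 in RA, 119 in Zscan4 OE and 1683 in Dux OE. For naive markers ESC was at 6.77 and DMSO at 6.43, and for core pluripotency DMSO was the highest group at 8.76 with ESC at 8.67. Of the single genes, Bnip3, Chac1, Ncam1, Fgf15, Tdgf1, Mycn and Tcl1 were higher in DMSO than in each of the other 12 groups, and Ly6a, Tex19.1, Sohlh2, Sparc and Plk2 were lower. Bnip3, for example, lay at 218 CPM in DMSO, 171 in SE KO RA and 33.5 in ESC.

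**Figure D4:**
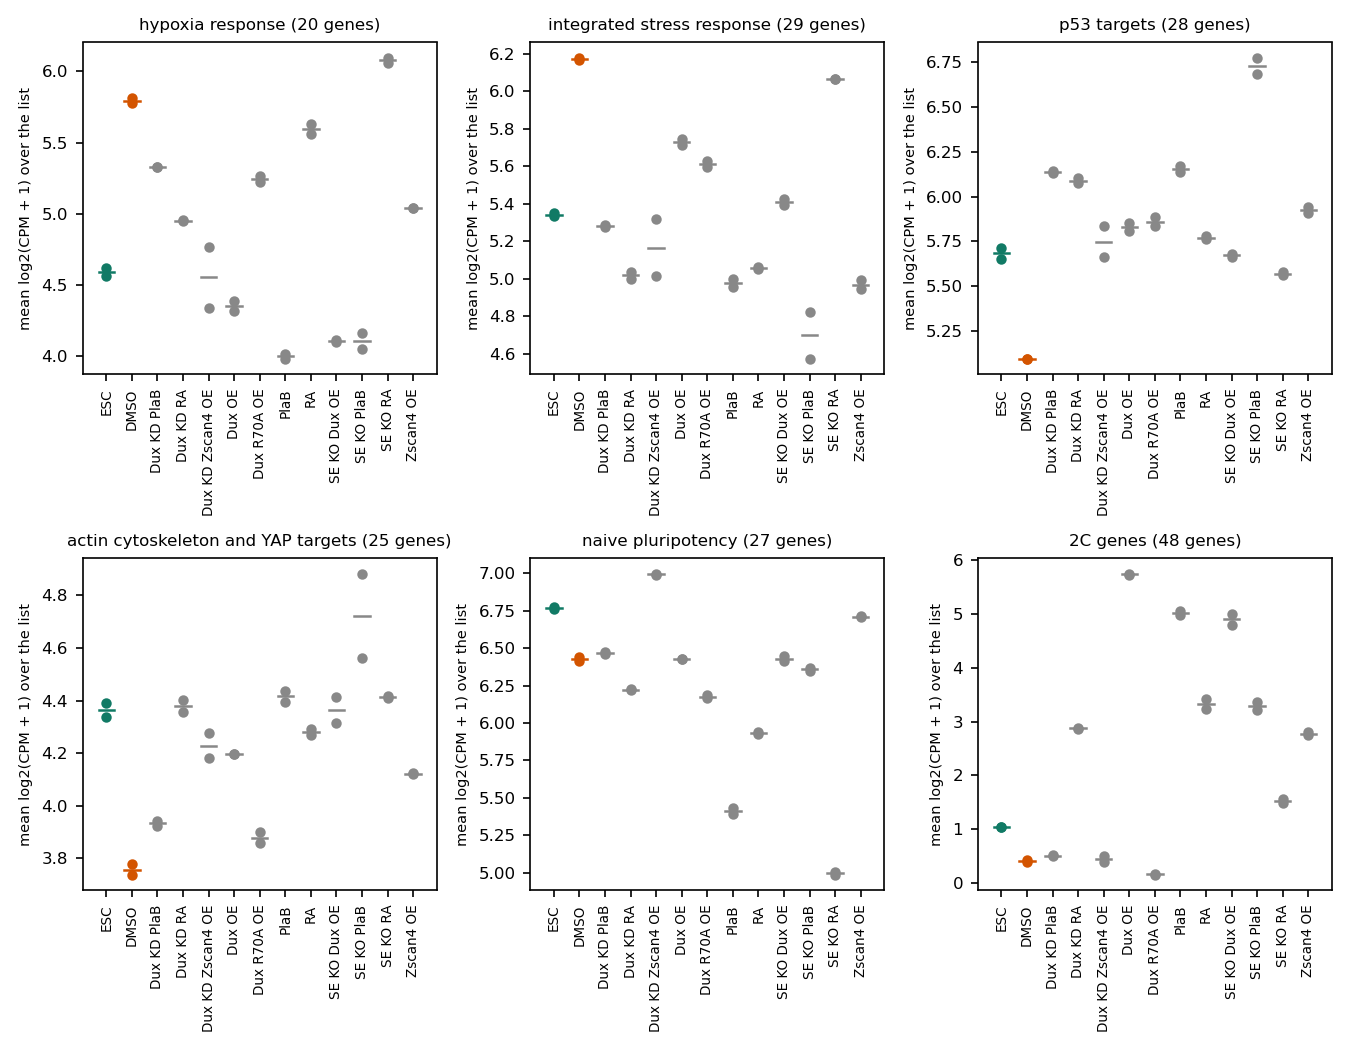
Mean of log2(CPM + 1) over the genes of 6 lists in each of the 26 libraries (points) and the mean of each group of 2 (lines), with untreated ESC in green, DMSO in orange and the 11 other groups in grey, and each panel on its own y axis. DMSO is the highest group for the integrated stress response (6.17) and the lowest for p53 targets (5.09) and for actin and YAP genes (3.76).

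The difference between the controls also had a pattern along chromosomes. For 8016 protein-coding genes averaging 4 or more in log2 CPM, the level in each library was set against the gene's median over 26 libraries, and the chromosome medians were centred on the median chromosome. In both DMSO libraries chromosomes 2, 6, 8, 12, 15, 17, 18 and X were higher, with group means between 0.20 and 0.28, while chromosomes 1 and 13 were lowest at -0.13 each. In ESC these 8 chromosomes lay between -0.16 and 0.05. The median log2 fold change was 0.36 on chromosome 12, 0.36 on X, and between 0.12 and 0.26 on the other 6, beside -0.28 on chromosome 1. It was above 0 in all 20-Mb windows of chromosomes 2, 6, 8, 15, 17, 18 and X, in 5 of 6 of chromosome 12, where it reached 0.92, and in none of the 10 of chromosome 1. The same 8 chromosomes had means between 0.11 and 0.22 in SE KO RA.

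The share of genes called higher was between 9.03% and 14.5% on those 8 chromosomes and between 3.92% and 8.13% on the others. When each gene's log2 fold change was centred on the median of its chromosome, a setting chosen after seeing the data, 1735 genes passed the thresholds as higher and 1472 as lower. The number of hypoxia genes called higher was 14 and of 2C genes called lower 23 with and without it. The stress response genes called higher went from 12 to 11, the actin and YAP genes called lower from 13 to 12, the p53 targets called lower from 6 to 4, and the antigen presentation genes called higher from 5 to 3. The part of this pattern in single results on those chromosomes was not tested, and no DNA measurement was used here. Base composition was related to smaller shifts without a steady trend. The median log2 fold change was 0.07 in decile 1 of transcript GC content (the lowest GC), -0.17 in decile 7, and 0 in decile 10. Exon length had a steady trend. With genes in 5 bins of length, the median rose from -0.15 in bin 1 (the shortest) to -0.03 in bin 3 and 0.03 in bin 5. The part of length in the list medians, such as that of the respiratory chain, was not tested.

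**Figure D5:**
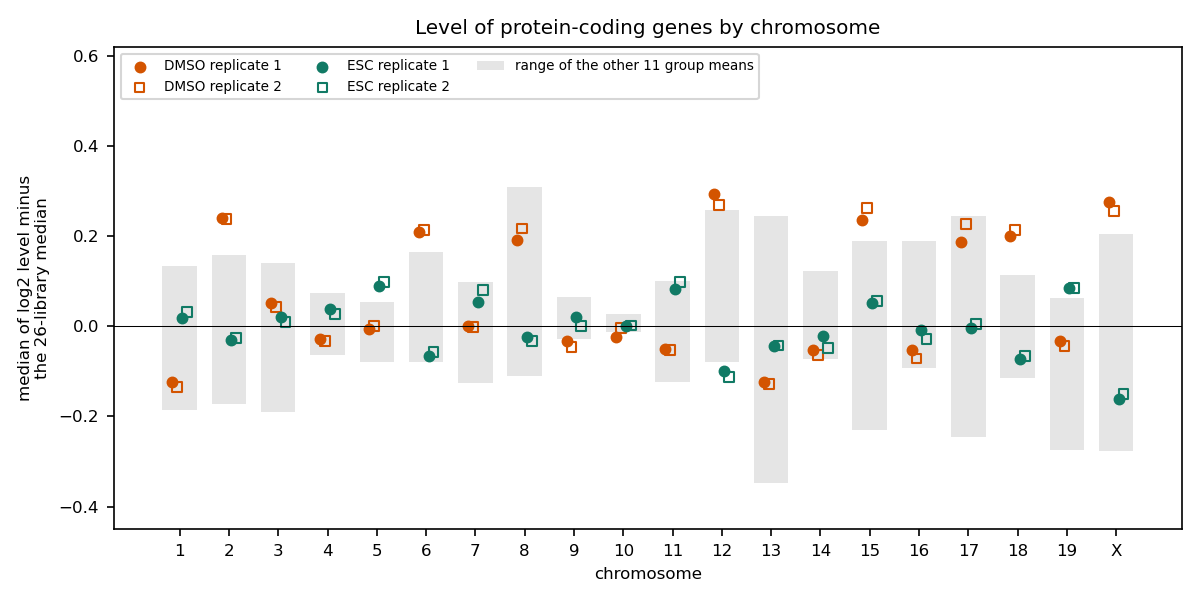
Median over protein-coding genes of each chromosome (x axis) of the log2 level minus the gene's median over 26 libraries, centred on the median chromosome (y axis), in the 2 DMSO libraries (orange) and the 2 untreated ESC libraries (green), with circles for replicate 1 and open squares for replicate 2. Grey bars span the means of the other 11 groups, and the DMSO points of chromosomes 2, 6, 8, 12, 15, 17, 18 and X lie between 0.187 and 0.294.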

How the data were processed

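The authors deposited 1 table of counts, whole numbers of reads per gene without normalization, for 55291 genes and 26 poly(A) RNA-seq libraries. Per the labels' processing notes, FastQC, Trimmomatic, STAR, featureCounts, DESeq2 and mm10 were used, with no versions. The strand setting and the handling of multi-mapping reads are not given in the sources used here. Of the symbols found once in GENCODE M21 (GRCm38), 99.3% had the same position there.

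The quasi-likelihood test of edgeR 4.0.16 (R 4.3.3) was run on these counts in a model of all 13 groups, with TMM normalization, filterByExpr (20953 genes kept) and a prior count of 0.125. A call required a Benjamini-Hochberg adjusted p under 0.05 and a log2 fold change of 1 or more in either direction. With 2 replicates per group, the spread leans on the other groups. Each SE is the size of the log2 fold change divided by the square root of the test's F statistic. It therefore rests on that shared spread and not on the 2 replicates of each group alone. The test was checked on simulated data. Levels are TMM-scaled CPM. Lower bounds use a floor of 3 counts per library, and they cover counting error only. The libraries of a pair differed by more than sampling noise (chi-square per degree of freedom 1.81 and 2.29).

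The gene lists and the comparison were chosen with earlier results of these data known. Genes named are, by rule, 12 that rose most and 12 that fell most (mean log2 CPM 3 or more, no overlap), up to 6 called members of each list with the largest change and the 2 uncalled members with the highest level, and 15 fixed genes. Further list members, Xist and the mitochondrial copies were named after their values were seen. Alternatives were RLE normalization, library size only, no filter, DESeq2 1.42.0, the 4 libraries alone, a replicate block, other thresholds, a prior count of 2, each library left out, and, added after seeing the data, centring on chromosome or GC medians. Some members of the lists are not reported here.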

Additional observations from a re-analysis of the deposited data

How the results depend on the processing

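The counts of called genes kept within 1.5 times of 1743 higher and 1658 lower in all alternatives but 1, the one without a fold threshold, which gave 4446 and 4695. With each library left out in turn, the counts ranged from 1499 to 1593 and from 1383 to 1391. Other normalizations, filters, tools and thresholds gave 1455 to 1950 higher and 1237 to 1652 lower, and centring on chromosome or GC medians, chosen after seeing the data, 1735 to 1843 and 1472 to 1524. With the replicate number as a block, 1731 and 1635 genes were called in the fit of 26 libraries and 1709 and 1402 in that of the 4 libraries. The numbers are only labels: same-numbered deviations from the group means correlated at 0.0155. Of 250 genes named by the rule, 168 were called, of which 23 lost the call without at least 1 library, and no called gene changed sign. Depth limits genes near 3 counts, which include 23 of 48 2C genes in DMSO.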
